A study of Mus musculus with 40 samples.

Results

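Cortical layer neuron markers are genes whose transcripts label excitatory neurons of particular layers of the neocortex. A set of 10 such genes, of 47643 counted in each region, was followed: Cux2, Rorb, Lamp5 and Rasgrf2 for the upper layers, and Etv1, Fezf2, Tbr1, Foxp2, Tle4 and Cplx3 for the deep layers. Wild-type germ-free Swiss Webster mice, female and aged 6 to 8 weeks per the methods, were given stool from human donors collected before (pre-KD) or after (post-KD) a clinical ketogenic diet, while all recipients ate the same control diet. Brain tissue was taken 4 days after the transfer. Hippocampus and frontal cortex were each represented by 10 pre-KD and 10 post-KD libraries, 1 per donor sample, and each library was pooled from 6 mice. Differences among the 6 mice within 1 pool are therefore not seen, and all recipients carried a human microbiota. P-values of post-KD against pre-KD measure the spread between cohorts. Those of tests across regions measure the spread of differences within cohorts.

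The neocortex is built in layers that differ in the connections of their excitatory neurons. Upper layer neurons mainly project within the cortex, whereas deep layer neurons send axons to the brainstem, spinal cord and thalamus. Many of the genes that mark these layers are also transcribed elsewhere in the forebrain, including the hippocampus and the striatum, so a layer marker in dissected tissue is not by itself a count of cortical neurons. In bulk tissue, fewer cells of a type and less RNA per cell cannot be told apart.

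Between 1140756 and 1947416 reads were assigned to genes in a hippocampal library and between 1188447 and 2095352 in a frontal cortical one. Levels are given in CPM, read counts scaled to a common library size with trimmed mean of M values (TMM) factors, at which 1 CPM stood for about 1.56 reads in the median hippocampal library and 1.74 in the median frontal cortical one. Of 21 genes that mark hippocampal subfields, 6 were higher in the hippocampus and 1, Coch, was higher in the frontal cortex past the adjusted threshold (edgeR, median log2 difference of frontal cortex over hippocampus -0.93), and their sums were 1292 to 2006 CPM in hippocampal and 974 to 1453 CPM in frontal cortical libraries. Markers of neighbouring tissues were present as well. Summed levels of 14 striatal neuron genes were 64.9 to 433 CPM in hippocampal and 699 to 1594 CPM in frontal cortical libraries, and the sums of 10 choroid plexus genes were 504 to 4388 and 7.85 to 603 CPM. Of single libraries, the frontal cortical pre-KD library of donor 1 held no Cux2 read. It also had the lowest median rank correlation with the other libraries of its region (0.739). The frontal cortical pre-KD library of donor 6 had the lowest striatal sum of its region. The hippocampal pre-KD library of donor 5 had the lowest median rank correlation with the other libraries of its region (0.661). Several results that turn on these libraries are given with and without them.

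All 10 markers passed the filter of 10 summed counts in both regions. The sum of Cux2, Rorb, Lamp5 and Rasgrf2 averaged 346 ± 91.8 CPM in hippocampus and 517 ± 64.8 CPM in frontal cortex, and that of the 6 deep layer markers averaged 290 ± 59.4 and 309.9 ± 61.4 CPM (SD, n = 20 each). A single hippocampal library, post-KD of donor 10, had an upper layer sum of 611 CPM, above all 20 frontal cortical libraries. Per kilobase of annotated exon, Lamp5 had the highest mean level in the frontal cortex (30.3 CPM per kb) and Fezf2 in the hippocampus (21.7 CPM per kb), and Cplx3 (2.26) and Foxp2 (0.741) were the lowest in the hippocampus. The sources name both a whole-transcript and a 3′ end library kit, and with the latter such a scaling by length would not apply.

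**Figure D1:**
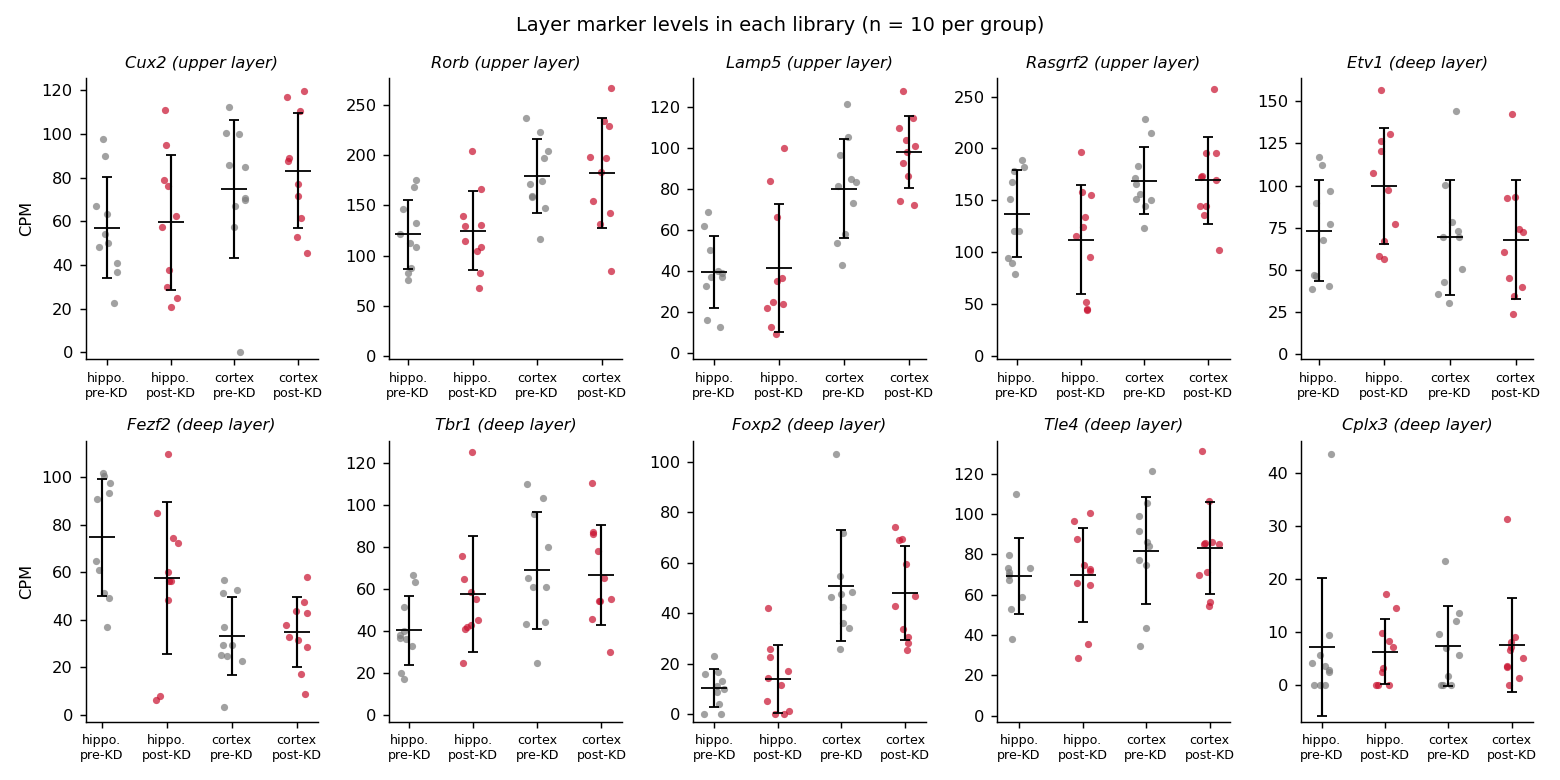
Levels of the 10 layer markers in CPM (vertical axis, separate scale per panel) in the 4 groups of 10 libraries on the horizontal axis (hippo., hippocampus; cortex, frontal cortex). Points are libraries and bars are mean ± SD. Lamp5 and Foxp2 stand higher in the frontal cortex, Fezf2 stands higher in the hippocampus, and pre-KD and post-KD points overlap in every panel.

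The comparison of the regions asked whether the layer markers separate dissected frontal cortex from hippocampus of the same cohorts. Of the 10 markers, 4 were higher in the frontal cortex (Lamp5, Rorb, Rasgrf2 and Foxp2) and 1 was higher in the hippocampus (Fezf2), by edgeR's quasi-likelihood test with each cohort as a block and Benjamini-Hochberg adjustment over 19422 genes. Over all genes tested, 2.85% passed in either direction, 1.98% being higher in the frontal cortex and 0.87% higher in the hippocampus. For the 4 upper layer markers the count was 3 higher and 0 lower, and for the 6 deep layer markers 1 higher and 1 lower. The median log2 difference of the 10 markers was 0.51, and that of all genes was 0.17.

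Among the upper layer markers, Lamp5 differed most between regions. Lamp5 (ENSMUSG00000027270, chr2:136052239-136069917 on the plus strand of mm10) encodes a lysosome-associated membrane protein found in upper layer neurons and in a class of cortical interneurons. It lay at 9.07 CPM in the lowest hippocampal library, 36.8 in the median and 99.9 in the highest, against 42.8, 89.3 and 128 CPM in the frontal cortex. The ranges overlapped, with 6 of 20 hippocampal libraries inside the frontal cortical range, and the frontal cortical library was the higher in 18 of 20 cohorts. The difference was 2.51-fold (log2 1.33 ± 0.21 SE, edgeR adjusted p = 2.86e-08).

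Rorb and Rasgrf2 were higher in the frontal cortex by smaller amounts. Rorb (ENSMUSG00000036192, chr19:18930605-19111196, minus strand), a nuclear receptor of layer 4 neurons, ranged from 68.1 through a median of 118 to 204 CPM in the hippocampus and from 84.4 through 179 to 266 CPM in the frontal cortex. It was higher in the frontal cortex in 18 of 20 cohorts, at 1.48-fold (log2 0.57 ± 0.13 SE, edgeR adjusted p = 6.99e-04). Rasgrf2 (ENSMUSG00000021708, chr13:91880400-92131656, minus strand), an exchange factor for small GTPases, ranged from 44.3 through 122 to 197 CPM in the hippocampus and from 103 through 168 to 257 CPM in the frontal cortex. It was higher in 12 of 20 cohorts, at 1.43-fold (log2 0.52 ± 0.13 SE, edgeR adjusted p = 0.00512), and without donor 6 it did not pass (log2 0.41, adjusted p = 0.0823). For both genes most libraries of the regions shared one range.

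Cux2, a homeobox transcription factor of the upper layers, had levels of 20.7 CPM at the lowest, 55.8 at the median and 111 at the highest in the hippocampus. In the frontal cortex these were 0, 80.8 and 119 CPM. The value of 0 came from the pre-KD library of donor 1, where 3 reads would have been 2.34 CPM, and the next lowest pre-KD library was at 57.4 CPM. In edgeR, the region difference of Cux2 did not pass with this library (log2 0.46 ± 0.20 SE, adjusted p = 0.296). It passed without the pre-KD cohort of donor 1, that is without both its libraries (log2 0.62, adjusted p = 0.0458).

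The deep layer markers moved in both directions. Foxp2 (ENSMUSG00000029563, chr6:14901349-15441977, plus strand), a forkhead transcription factor of corticothalamic layer 6 neurons that is also a marker of striatal projection neurons, was listed at 0 in 4 of 20 hippocampal libraries, where 3 reads would be 1.82 to 2.18 CPM. It had a median of 11.4 and a highest value of 42.1 CPM in the hippocampus, and ran from 25.4 through 46.6 to 103 CPM in the frontal cortex. The frontal cortical library was the higher in 20 of 20 cohorts, although 2 hippocampal libraries reached into the frontal cortical range. The difference was 5.79-fold (log2 2.53 ± 0.34 SE, edgeR adjusted p = 1.92e-11). Fezf2 (ENSMUSG00000021743, chr14:12342094-12348189, minus strand), a zinc finger factor that specifies subcortically projecting neurons of layer 5, had the opposite direction. It ran from 6.05 through 62.9 to 109.9 CPM in the hippocampus and from 3.12 through 32.0 to 58.2 CPM in the frontal cortex, with the hippocampal library the higher in 17 of 20 cohorts. Fezf2 was 1.85-fold higher in the hippocampus (log2 -0.88 ± 0.23 SE, edgeR adjusted p = 0.00785). It did not pass without donor 1 (log2 -0.71, adjusted p = 0.0946) or without donor 4 (log2 -0.80, adjusted p = 0.0544).

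The other 4 deep layer markers did not pass between regions. Etv1, an ETS factor of layer 5, averaged 86.5 ± 34.2 CPM in hippocampus and 68.6 ± 33.8 CPM in frontal cortex (log2 -0.38 ± 0.18 SE, adjusted p = 0.416). Tbr1, a T-box factor of layer 6, averaged 49.0 ± 23.8 and 67.9 ± 25.3 CPM (log2 0.50 ± 0.21 SE, adjusted p = 0.283). Tle4, a corepressor of layer 6, averaged 69.6 ± 20.6 and 82.5 ± 24.2 CPM (log2 0.24 ± 0.18 SE, adjusted p = 0.71). Cplx3, a complexin found in subplate-derived neurons, was the least counted. It averaged 6.67 ± 10.02 and 7.40 ± 8.04 CPM and had no read in 6 hippocampal and 4 frontal cortical libraries, and the difference between regions did not pass (log2 0.81 ± 0.81 SE, adjusted p = 0.792).

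**Figure D2:**
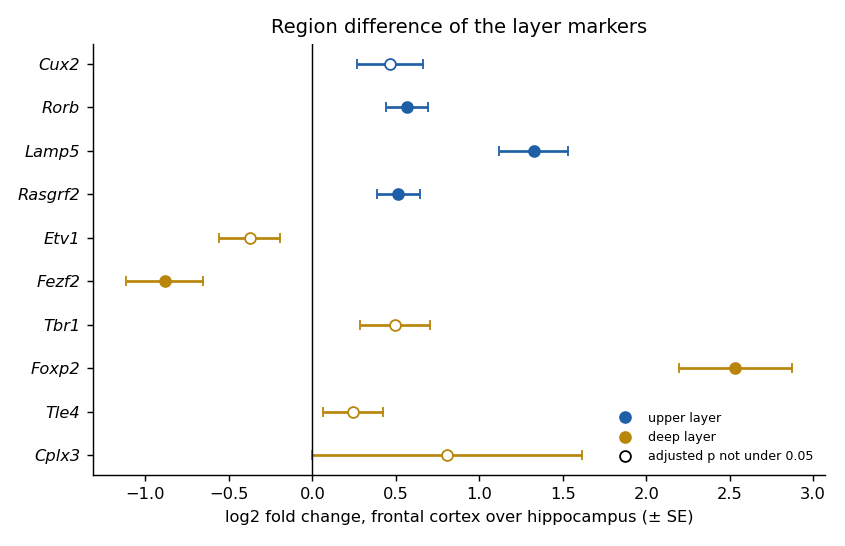
Region difference of each layer marker as log2 fold change of frontal cortex over hippocampus (horizontal axis, points with bars of 1 SE), upper layer markers in blue and deep layer markers in ochre. Filled points passed an adjusted p of 0.05, with Foxp2 at 2.53, Lamp5 at 1.33 and Fezf2 at -0.88.

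Promoter stretches are shown for Lamp5 and Rorb, which were higher in the frontal cortex, and for Fezf2, which was higher in the hippocampus, as the sequence before the start of a RefSeq transcript. They are 250 bases before the RefSeq start that lies farthest 5′, in GRCm38.p6 and read on the strand of the gene. Capitals mark CCAAT (the CCAAT box), GGGCGG (the GC box) or CACCTG (an E-box) on either strand.
Lamp5, chr2:136052089-136052338, plus strand: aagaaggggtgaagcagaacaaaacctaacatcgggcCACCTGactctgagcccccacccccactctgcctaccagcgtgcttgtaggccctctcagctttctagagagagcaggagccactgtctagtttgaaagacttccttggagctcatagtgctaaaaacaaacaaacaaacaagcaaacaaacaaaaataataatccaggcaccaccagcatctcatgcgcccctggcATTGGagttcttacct
Rorb, chr19:19111197-19111446, minus strand: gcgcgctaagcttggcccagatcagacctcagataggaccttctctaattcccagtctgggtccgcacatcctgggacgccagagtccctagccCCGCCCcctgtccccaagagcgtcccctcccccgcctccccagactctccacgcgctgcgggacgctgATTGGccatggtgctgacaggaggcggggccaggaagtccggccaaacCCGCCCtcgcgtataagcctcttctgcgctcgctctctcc
Fezf2, chr14:12345866-12346115, minus strand: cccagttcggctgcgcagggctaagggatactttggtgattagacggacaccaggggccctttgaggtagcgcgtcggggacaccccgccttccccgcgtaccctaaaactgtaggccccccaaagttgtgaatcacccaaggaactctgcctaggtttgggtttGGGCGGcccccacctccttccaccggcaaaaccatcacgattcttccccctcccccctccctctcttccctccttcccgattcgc
The Lamp5 stretch held CACCTG 213 bases before the start and CCAAT on the reverse strand, that of Rorb held GGGCGG at 2 positions and CCAAT, each on the reverse strand, and that of Fezf2 held GGGCGG. Of 9 markers with a promoter in the table (Foxp2 was not matched), 4 held CCAAT, 4 held GGGCGG and 3 held CACCTG, against 34.5%, 33.0% and 17.1% of 27025 promoters, 1 per gene. CAGCTG, another E-box, and the nuclear receptor site AGGTCA were in 1 marker each, Cplx3 in both cases (12.7% and 13.8% of promoters), and TATAAA and the T-box site AGGTGTGA were in 0 (12.98% and 1.14%). The Rorb stretch ends just before the first base of its gene model, whereas the end of the Lamp5 stretch, with its CCAAT, and the whole Fezf2 stretch lie inside the GENCODE gene bounds given above, which reach farther 5′ than the RefSeq start. These matches describe letters in a window.

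Other genes known to mark cortical layers were counted in the same comparison. Of 20 other upper layer genes, 5 passed as higher in the frontal cortex and 0 as higher in the hippocampus (median log2 difference 0.52, against 0.17 for all genes). Of those that passed, the largest differences were those of Stard8 (8.90 ± 14.2 CPM in hippocampus and 24.0 ± 9.69 in frontal cortex, log2 2.46), the POU factor Pou3f2 (19.7 ± 12.7 and 36.4 ± 11.1 CPM, log2 1.15) and the homeobox factor Cux1 (67.6 ± 20.9 and 129 ± 34.4 CPM, log2 0.94). Pou3f2 did not pass without the pre-KD cohort of donor 5 (edgeR adjusted p = 0.0902) or without any of donors 1, 2, 4, 5 or 7. Of 24 other deep layer genes tested, 2 passed as higher in the frontal cortex and 4 as higher in the hippocampus (median log2 difference -0.03). Syt6, a synaptotagmin of layer 6 (9.15 ± 10.7 and 34.7 ± 16.9 CPM, log2 2.84), and Pcp4, a calmodulin-binding protein (180.2 ± 48.2 and 425 ± 89.2 CPM, log2 1.26), were higher in the frontal cortex. Nnat, which encodes neuronatin (596 ± 134 and 216 ± 44.99 CPM, log2 -1.46), Tshz2, a zinc finger factor (104 ± 37.5 and 42.05 ± 14.6 CPM, log2 -1.27), and Nr4a2, an orphan nuclear receptor (195.5 ± 58.4 and 90.3 ± 27.1 CPM, log2 -1.12), were higher in the hippocampus. All values are mean ± SD over 20 libraries per region, and adjusted p by edgeR lay between 1.89e-58 and 0.0335.

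Markers of other tissues moved with the region. All 13 striatal neuron genes tested were higher in the frontal cortex (median log2 difference 3.46), among them Drd1, the dopamine D1 receptor, at 16.8 ± 15.4 and 94.5 ± 26.9 CPM, and Penk, proenkephalin, at 25.6 ± 18.9 and 210.02 ± 46.3 CPM. Drd2, the dopamine D2 receptor, is also in that list but was not tested, having under 10 reads in all 40 libraries together and 0 in the hippocampal ones. All 8 olfactory bulb genes tested had a positive difference (4 passed, median log2 3.22), as did all 14 interneuron genes (4 passed, median log2 0.50). Of all genes tested, 62.7% had a positive difference, and 1.98% passed as higher in the frontal cortex. Of 10 choroid plexus genes, 6 were higher in hippocampus and 0 in frontal cortex. Over the 20 libraries of a region, the Pearson correlation of log2 CPM of Foxp2 with the log2 striatal sum was 0.28 in the frontal cortex and 0.39 in the hippocampus, and that of Lamp5 was -0.19 and -0.0033, as a description without a test. That of Rasgrf2 was -0.27 and 0.38. With the log2 interneuron sum, Foxp2 had 0.42 and 0.58, both higher than with the striatal sum. The part of other tissue in the region differences was not tested.

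The comparison of post-KD with pre-KD cohorts asked whether the transferred microbiota altered the layer markers. It called 0 of 10 markers in the hippocampus and 0 of 10 in the frontal cortex at an adjusted p of 0.05 in edgeR, against 0.0057% and 0.0056% of all genes tested. At an unadjusted p of 0.05, 0 of 10 markers passed in either region, against 10.1% of all genes in hippocampus and 9.68% in frontal cortex. These shares depend on the fit and were 3.42% and 4.62% with DESeq2 and 1.99% and 3.07% with the donor as a block, so little can be read from them. DESeq2 also called 0 of 10 in each region.

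In the hippocampus, the upper layer markers Cux2, Rorb and Lamp5 had log2 differences of 0.051, 0.034 and 0.058 with SE between 0.21 and 0.38. Rasgrf2 averaged 137 ± 41.5 CPM pre-KD and 112 ± 52.3 CPM post-KD (log2 -0.30 ± 0.22 SE, adjusted p = 0.893) and was higher post-KD in 3 of 10 donors. Of the deep layer markers, Etv1 had the smallest p. It ran from 38.8 through a median of 72.1 to 117 CPM pre-KD and from 56.4 through 102 to 157 CPM post-KD. The groups overlapped, the post-KD library was the higher in 8 of 10 donors, and the difference did not pass (log2 0.44 ± 0.25 SE, edgeR p = 0.0803, adjusted p = 0.648). Tbr1 averaged 40.4 ± 16.3 and 57.6 ± 27.7 CPM (log2 0.50 ± 0.33 SE, adjusted p = 0.798), with 1 post-KD library, of donor 3, at 125 CPM. Fezf2 averaged 74.7 ± 24.6 and 57.6 ± 31.9 CPM (log2 -0.38 ± 0.30 SE, adjusted p = 0.937), and its 2 lowest hippocampal libraries were post-KD, at 6.05 and 7.87 CPM. Tle4 had a log2 difference of 0.0021 ± 0.27 SE. That of Cplx3 was -0.19 ± 1.06 SE, and 1.004 without the pre-KD library of donor 5.

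For frontal cortex, the log2 differences spanned a narrower range than in hippocampus. Lamp5 ran from 42.8 through 82.2 to 121 CPM pre-KD and from 72.2 through 99.2 to 128 CPM post-KD, which overlap (log2 0.29 ± 0.18 SE, edgeR p = 0.114, adjusted p = 0.743). The other 9 markers lay between -0.084 (Foxp2) and 0.15 (Cux2) on the log2 scale. Without the pre-KD library of donor 1, Foxp2 was at 0.086, Cux2 at -0.0028, Etv1 at 0.14 and Fezf2 at -0.081, all reversed in sign. Without the pre-KD library of donor 6, Tbr1 was at 0.050, Rasgrf2 at 0.044, Etv1 at 0.041 and Cplx3 at -0.077, also reversed. The SE of the 9 markers ran from 0.14 (Rasgrf2) to 0.78 (Cplx3), so that a p above the threshold does not show equal levels.

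**Figure D3:**
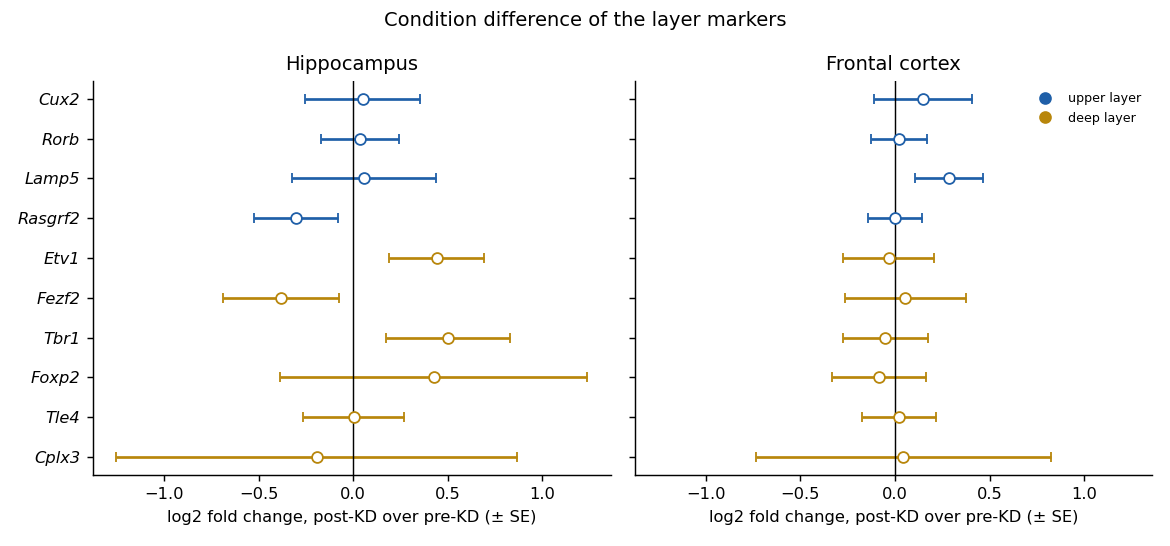
Difference of each layer marker between post-KD and pre-KD cohorts as log2 fold change (horizontal axis, points with bars of 1 SE) in the hippocampus (left) and the frontal cortex (right). All points are open because 0 of 10 markers passed in either region, and the range is -0.38 to 0.50 in the hippocampus and -0.084 to 0.29 in the frontal cortex.

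Whether the post-KD difference itself differed between regions was tested with an interaction term over 40 libraries. It called 0 of 10 markers, against 0.0154% of all genes, and 0 of 10 at an unadjusted p of 0.05, against 2.22% of all genes. DESeq2 called 0 of 10 as well. The smallest p were those of Fezf2 (log2 0.73 ± 0.46 SE, and 0.46 without the pre-KD cohort of donor 1) and Etv1 (log2 -0.55 ± 0.37 SE), both with an adjusted p of 1.

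The wider layer lists had few members near the threshold for post-KD against pre-KD. Of 20 other upper layer genes, 1 had an unadjusted p under 0.05 in the hippocampus, Pou3f1 (log2 0.67 ± 0.24 SE, edgeR p = 0.00542, adjusted p = 0.0876). Among frontal cortical libraries 2 did, Pou3f1 (log2 0.40 ± 0.20 SE, p = 0.0473, adjusted p = 0.5) and Scnn1a, a sodium channel subunit found in layer 4 (log2 2.47 ± 1.17 SE, p = 0.0379, adjusted p = 0.446), which averaged 2.87 CPM. Of 24 other deep layer genes, 0 did in hippocampus and 1 in frontal cortex, Pcp4 (log2 0.32 ± 0.11 SE, p = 0.00639, adjusted p = 0.132). No gene of the 10 lists for other tissues and cell types passed the adjusted threshold in either region. In the hippocampus, 10 of 11 striatal neuron genes tested were lower post-KD (1 with an unadjusted p under 0.05, median log2 -0.38, against -0.0076 for all genes, of which 49.3% were higher). The 11 thalamic neuron genes had a median log2 of -0.42, with 6 lower. Of 21 hippocampal subfield genes, 4 had an unadjusted p under 0.05, where 10.1% of all genes did. In frontal cortex 8 of 13 striatal neuron genes were higher post-KD, where 50.8% of all genes were. Of 8 olfactory bulb genes, 6 were lower (median log2 -0.75). There, 2 of 13 striatal, 3 of 20 subfield and 2 of 10 microglia genes had an unadjusted p under 0.05, where 9.68% of all genes did. The part of these lists in the values of the layer markers was not tested.

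To ask whether the markers varied together between dissections, the 45 pairs were correlated within each region on log2 CPM. Of 90 correlations, 0 passed an adjusted p of 0.05 in a permutation test. At an unadjusted p of 0.05, 2 of 45 passed in the hippocampus and 7 of 45 in the frontal cortex. The median r was 0.01 in hippocampus and 0.048 in frontal cortex. Among the 6 upper layer pairs it was 0.25 in the hippocampus (5 of 6 positive) and -0.055 in the frontal cortex (2 of 6 positive). Among the 15 deep layer pairs it was 0.027 (8 positive) and 0.081 (9 positive), and among the 24 pairs across layers -0.035 and 0.028.

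The 9 pairs under an unadjusted p of 0.05 were as follows. In the hippocampus Cux2 and Rorb had r = 0.49 (rho = 0.34, permutation p = 0.0295, adjusted p = 0.378, n = 20), and r = 0.22 without the 2 libraries farthest from the median. Over frontal cortical libraries Lamp5 and Etv1 had r = 0.53 (rho = 0.51, permutation p = 0.0171, adjusted p = 0.378, n = 20), with 0.73 pre-KD and 0.49 post-KD. Lamp5 and Tle4 ran in opposite directions (r = -0.48, rho = -0.57, permutation p = 0.0336, adjusted p = 0.378, n = 20), with -0.45 pre-KD and -0.83 post-KD. The highest value, r = 0.66 for Cux2 and Fezf2 (rho = -0.12, permutation p = 0.0418, adjusted p = 0.418), rested on the frontal cortical pre-KD library of donor 1, with no Cux2 and 4 Fezf2 reads, and was r = -0.24 without it. Fezf2 and Tbr1 (r = 0.51, rho = 0.32), Foxp2 and Cplx3 (r = 0.48, rho = 0.36), Cux2 and Foxp2 (r = -0.48, rho = -0.15) and Cux2 and Etv1 (r = -0.47, rho = -0.37) in cortex, and Fezf2 and Foxp2 (r = 0.48, rho = 0.11) in hippocampus, were the others, all at an adjusted permutation p of 0.378. The frontal cortical pre-KD library of donor 1 also bore on Fezf2 and Tbr1, at r = 0.21 without it, and on Cux2 and Etv1, at r = -0.30. Without the 2 libraries farthest from the median, r was 0.0032 for Cux2 and Foxp2 in cortex and -0.11 for Fezf2 and Foxp2 in hippocampus. Upper and deep layer sums correlated at r = -0.10 in hippocampus and 0.16 in frontal cortex, and the ratio of the upper to the deep sum averaged 1.25 ± 0.41 and 1.73 ± 0.42 (SD, n = 20 each).

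**Figure D4:**
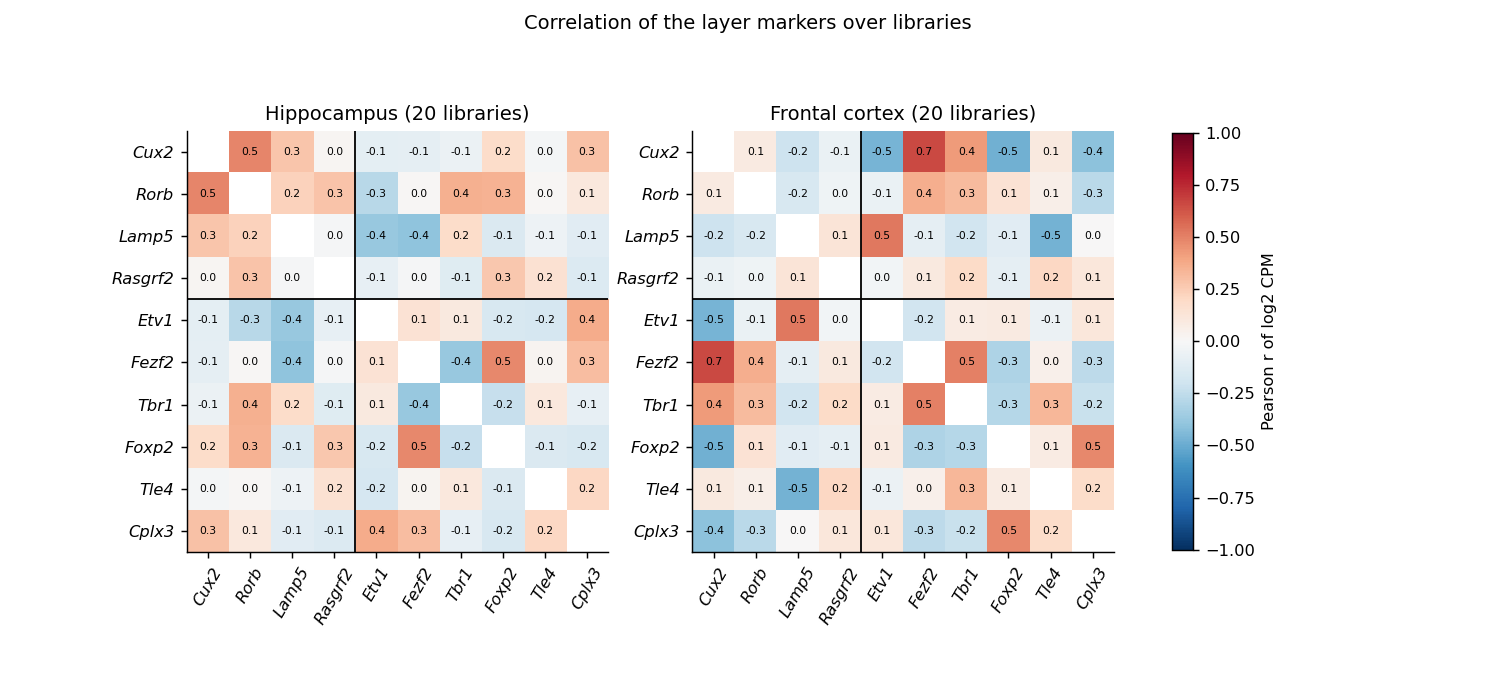
Pearson correlation of log2 CPM between each pair of layer markers over the 20 libraries of the hippocampus (left) and of the frontal cortex (right), on a colour scale from -1 to 1. Lines separate the 4 upper from the 6 deep layer markers, and 0 of 90 correlations passed an adjusted p of 0.05.

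The same marker in both regions of a cohort was also followed. Over 20 cohorts the correlation between its hippocampal and frontal cortical level ran from -0.31 (Lamp5) to 0.47 (Foxp2), as a description.

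Sums of other lists also moved with the layer markers in places. In the hippocampus the deep layer sum had r = 0.61 with the sum of 21 hippocampal subfield genes, 0.67 with that of 10 astrocyte genes and 0.39 with the other deep layer genes. The upper layer sum had r = 0.46 with the other upper layer genes and 0.48 with the excitatory neuron genes. Over frontal cortical libraries the upper layer sum had r = 0.67 with the astrocyte sum and -0.0012 with the other upper layer genes. The deep layer sum had r = 0.45 with the choroid plexus sum, 0.075 with the other deep layer genes and -0.40 with the other upper layer genes. With the striatal sum, the upper layer sum had r = 0.33 in hippocampus and -0.09 in frontal cortex, and the deep layer sum -0.31 and -0.15, and both hippocampal values were near 0 without the 2 libraries farthest from the median (-0.043 and -0.014). These are descriptions over 20 libraries that share depth and scaling, and their part in any result was not tested.

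**Figure D5:**
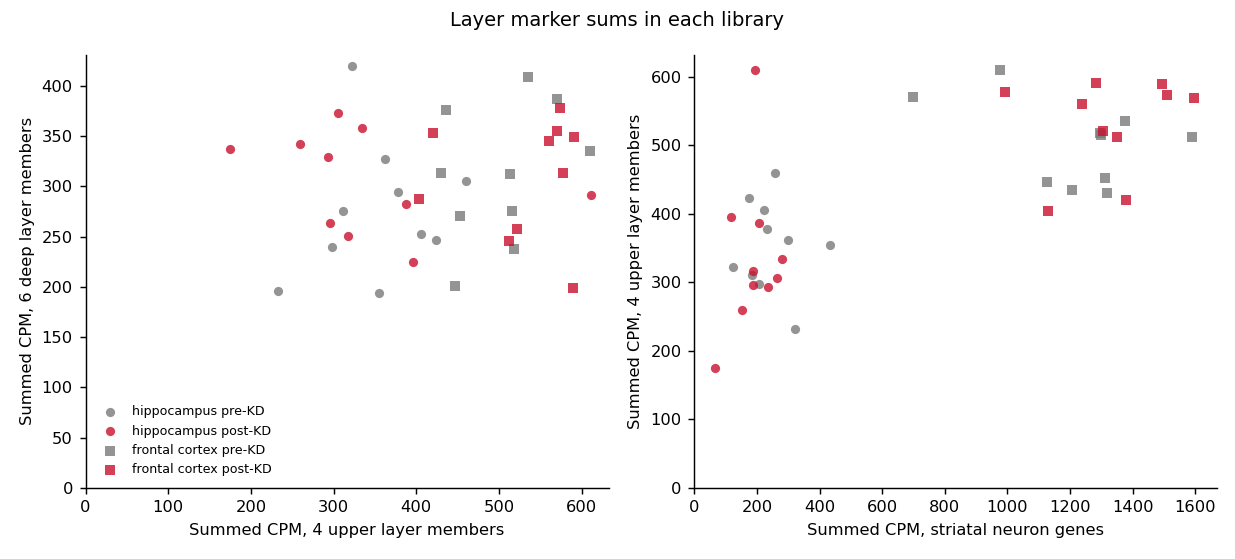
Summed CPM per library of the 4 upper against the 6 deep layer markers (left) and of 14 striatal neuron genes against the 4 upper layer markers (right). Circles are hippocampal and squares frontal cortical libraries, grey pre-KD and red post-KD. The striatal sums separate the regions, at 64.9 to 433 and 699 to 1594 CPM, whereas the deep layer sums overlap.

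The genes most like each layer sum over libraries were listed by Pearson correlation of log2 CPM among genes averaging at least 20 counts. In the hippocampus Vps37a (r = 0.79), Lrrc4b, Txndc15, Elof1 and Snapin (r = 0.73) were nearest the upper layer sum of 8008 genes, and Cep120 (r = 0.74), Tex264, Lrrfip2, Eif3c and Lats1 (r = 0.72) the deep layer sum. Those in cortex were Champ1 (r = 0.77), 2 identifiers without a symbol, Rxfp1 and Parp6 (r = 0.72), and Pdpn (r = 0.71), Prmt2, Tpm3-rs7, Bcl11a and Zfp281 (r = 0.67), of 8246 genes. The highest of so many correlations over 20 libraries are large by selection, so they are a description. Bcl11a is itself a transcription factor of cortical projection neurons.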

How the data were processed

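RNA-seq was analysed in 40 libraries, 20 per region. Per the labels, RNA was extracted with a PureLink kit and libraries were made with a TruSeq kit, while the key resources table of the study names a QuantSeq FWD kit and HISAT2. Raw read counts of 47643 Ensembl genes were deposited for each region. The submitters' processing notes list FastQC 0.11.5, STAR 2.5.2a, SAMtools 1.3, HTSeq 0.6.0 and DESeq2 (used by the authors) on mm10. The annotation release and the use of strand are not given in the sources used here, so reads of overlapping genes cannot be told apart. Symbols for 47224 identifiers and the gene models came from GENCODE M21 tables, and 419 identifiers were not matched.

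Tests used edgeR 4.0.16 on genes whose total in the fitted libraries reached 10 counts (TMM, quasi-likelihood test, R 4.3.3), with Benjamini-Hochberg adjustment over all genes and a threshold of 0.05. Post-KD was compared with pre-KD within each region, and the regions and their interaction with condition were tested with each of 20 cohorts as a block. SE is the absolute log2 difference over the root of the F statistic. CPM are TMM-scaled. Correlations used log2 CPM (prior count 2) and two-sided permutation tests (scipy 1.17.1, numpy 2.4.6, pandas 2.3.3, Python 3.11.15), adjusted over 90 pairs; matplotlib 3.10.9 drew the plots. The fits and the pair test were checked on simulated data. There the post-KD against pre-KD fits missed most of the smaller changes and some of the larger ones. They also called some unchanged genes and gave unchanged genes an unadjusted p under 0.05 more often than nominal. Of 180 pairs of libraries within groups, 0 were identical.

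The markers and lists were chosen with earlier results of these data known. Named are all 10 markers; of the other layer lists, the 3 genes per list and direction with the largest region difference among those past adjusted p, and every gene with an unadjusted p under 0.05 for post-KD against pre-KD; of other lists, genes past adjusted p for that comparison; and the 5 genes most correlated with each layer sum. Coch, Drd1, Drd2 and Penk were named after their values were seen. Alternatives were DESeq2 1.42.0, no filter, filterByExpr, RLE size factors, the replicate block, leaving out each donor and, for pairs, no TMM, a prior count of 0.5 and deviations from condition means. Leaving out 3 single libraries was added after seeing the data. In the region and interaction fits, the other library of the same cohort was left out as well. Donors pair the cohorts by design: after removing condition means, both libraries from 1 donor correlated at -0.030 to 0.027 in the hippocampus and -0.047 to 0.032 in the frontal cortex, with 0 pairs above 0.1, and regions of a cohort at -0.023 to 0.20, with 1 of 20 above 0.1. Promoters were taken from RefSeq (GRCm38.p6), with 9 of 10 markers matched. Levels that 3 reads would give cover counting error only. The number of per-sample columns left unused was 0.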

Additional observations from a re-analysis of the deposited data

Results flagged for a closer look

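In 40 groups of 10 libraries, 1 for each marker, region and condition, 4 held a single library separated from the rest by Dixon's gap test, which chance does in about 1 in 20 groups. Cux2 was at 0 CPM in the frontal cortical pre-KD library of donor 1, with the next lowest of that group at 57.4 CPM. Tbr1 was at 125.04 CPM (150 reads) in the hippocampal post-KD library of donor 3, with the next highest at 75.7 CPM. Cplx3 was at 43.6 CPM (60 reads) in the hippocampal pre-KD library of donor 5, with the next highest at 9.36 CPM, and at 31.4 CPM (47 reads) in the frontal cortical post-KD library of donor 6, with the next highest at 8.97 CPM. For 0 of 10 markers did the post-KD difference differ between regions at an adjusted p of 0.05 (edgeR).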

How the results depend on the processing

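The counts of markers called were 0 in each post-KD comparison and in the interaction under every alternative run, and the counts of correlated pairs were 0 in both regions. Between regions 5 markers were called under each alternative, 4 to 6 when libraries were left out. The same 5 markers passed with DESeq2, without a filter, with filterByExpr, with RLE size factors and without the replicate block. Without donor 6 Rasgrf2 was lost, without donor 4 Fezf2 was lost, and without donor 1 Cux2 replaced Fezf2. Of the other layer genes, Pou3f2 did not pass in edgeR with filterByExpr (adjusted p = 0.0605), without the pre-KD cohort of donor 5 (0.0902) or without donors 1, 2, 4, 5 or 7 (0.0534 to 0.217).

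Counts over all genes moved more. DESeq2 called 1033 genes between regions (554 in edgeR) and the fit without the replicate block 1935. In the hippocampus, no filter gave 1291 calls for post-KD against pre-KD, against 1. Genes with an unadjusted p under 0.05 numbered 599 with DESeq2 and 348 with the replicate block against 1762 in the hippocampus, 825 and 548 against 1731 in the frontal cortex, and 949 with DESeq2 and 1767 without the block against 431 for the interaction. Interaction calls without the block were 348 against 3. With filterByExpr and with no filter, the genes with an unadjusted p under 0.05 numbered 221 and 2931 in hippocampus and 407 and 3035 in frontal cortex. Frontal cortical calls were 2 with DESeq2 and 3 with the donor block against 1, hippocampal calls were 0 with DESeq2, filterByExpr or the donor block, and interaction calls were 0 with DESeq2 or filterByExpr.

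Differences between post-KD and pre-KD near 0 changed sign, none past the threshold. With the donor as a replicate block, the log2 value was -0.037 for Cux2, -0.12 for Lamp5, -0.021 for Tle4 and 0.35 for Cplx3 in the hippocampus and -0.013 for Rorb in the frontal cortex. Rasgrf2 in the frontal cortex was 0.0040 with DESeq2 and 0.0047 with RLE size factors. Leaving out libraries gave, in the hippocampus, -0.065 to 0.21 for Cux2, -0.025 to 0.13 for Rorb, -0.14 to 0.30 for Lamp5, -0.066 to 0.19 for Tle4 and -0.45 to 1.004 for Cplx3. In the frontal cortex it gave -0.0028 to 0.27 for Cux2, -0.11 to 0.14 for Rorb, -0.074 to 0.063 for Rasgrf2, -0.22 to 0.14 for Etv1, -0.081 to 0.16 for Fezf2, -0.20 to 0.062 for Tbr1, -0.23 to 0.086 for Foxp2, -0.15 to 0.13 for Tle4 and -0.69 to 0.45 for Cplx3. With no change of sign, hippocampal values moved to -0.16 for Rasgrf2 without donor 4, -0.21 for Fezf2 without donor 8 and -0.59 with the donor block, 0.29 for Tbr1 without donor 3, and 0.12 with the donor block and 0.16 without donor 9 for Foxp2, against -0.30, -0.38, 0.50 and 0.43. Without the replicate block, region differences fell to 0.15 for Cplx3 (0.47 to 1.25 on leaving out libraries, against 0.81), 1.57 for Stard8 (against 2.46) and 1.93 for Syt6 (against 2.84), and the interaction of Fezf2 to 0.44. The interaction of Etv1 was -0.35 without donor 7. The correlation of Cux2 with Fezf2 ran from -0.24 to 0.75 and that of Cux2 with Foxp2 from -0.56 to 0.017. The replicate block changed no call among the markers. The cause was not tested. Cplx3 and hippocampal Foxp2 had the fewest reads.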
